A study of Homo sapiens with 10 samples.

Results

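Messenger RNA levels of 10 selenoprotein genes, SELENOT, SELENOK, SELENOS, SELENOF, SELENOM, SELENOH, SELENOW, SELENOP, SELENOI and SELENON, were followed through an RNA sequencing experiment on hTERT RPE-1 cells. The genes were taken by symbol from the 40664 rows of the deposited gene count table, which held all 10, and all 10 passed the filter on low counts that left 13990 genes. They had been proposed with results of these data in view, and mainly with the comparison of siNemp1 with control at 120 kPa in view, so their values in that comparison are a description and carry no test. hTERT RPE-1 is a human line from retinal pigment epithelium that was made immortal with telomerase. The cells were controls or had received siNemp1, a small interfering RNA against NEMP1, which encodes a protein of the inner nuclear membrane, and they lay on a 10 kPa (soft) or a 120 kPa (stiff) substrate. Each treatment had 2 libraries at 10 kPa and 3 libraries at 120 kPa, 10 in all. All groups share the 1 immortalised line, and the labels do not say what the control cells received or whether replicates came from separate cultures, so a p-value here measures the spread among libraries alone, and that spread could be technical.

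Selenoproteins contain selenocysteine, an amino acid like cysteine with selenium in place of sulphur. Its codon is UGA (TGA in DNA), which otherwise ends translation, and it is read as selenocysteine with the help of a hairpin in the untranslated tail of the messenger RNA, the binding protein SECISBP2, a dedicated elongation factor and a dedicated transfer RNA. Many selenoproteins are redox enzymes, and a large share of the family works in the endoplasmic reticulum (ER), where proteins fold and where part of the cell's calcium is stored.

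The sequence that the genes share is the selenocysteine codon in its frame. In the GENCODE 29 transcripts of GRCh38, the 10 genes carried 20 such codons, all of them TGA and all in frame. SELENOP had 10 and SELENON had 2, and the other 8 genes had 1 each. The stretches below show the codon in capitals with up to 12 bases on either side, 5′ to 3′ in the coding strand, for 1 codon of each gene except SELENON, for which both are shown, and they are grouped by the place of the codon.
SELENOW: tattgtggcgctTGAggctacaagtcc
SELENOT: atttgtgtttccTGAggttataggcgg
SELENOH: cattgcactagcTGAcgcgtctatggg
SELENOM: acctgcgggggaTGAcagctgaaccgc
SELENOF: gaagtttgtggaTGAaaattgggaagg
SELENOK: atggctggtggaTGAggaaggtaa
SELENOS: tcatctggcggaTGAggctaa
SELENOI: ccaaactcagatTGActaggaatggaa
SELENOP, first codon: cttcaagccagcTGAtacctgtgcata
SELENON, first codon: ccctggctcaatTGAtcctcctgcctc
SELENON, second codon: gaccagtcctgcTGAggttcagggcgg

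In 4 genes, SELENOW, SELENOT, SELENOH and SELENOM, a cysteine codon (tgt or tgc) stood 3 codons before the TGA, the arrangement of the CxxU redox motif of thioredoxin-like selenoproteins. Their selenocysteine lay before the middle of the protein, at codon 13 of 87 in SELENOW, 49 of 195 in SELENOT, 44 of 122 in SELENOH and 48 of 145 in SELENOM. The codon was in the middle of SELENOF, at 96 of 165. It was next to the end in the ER membrane proteins SELENOK (92 of 94) and SELENOS (188 of 189) and close to the end in SELENOI (387 of 397). SELENON carried its codons at 127 and 462 of 590. The first codon of SELENOP was at 59 of 381, and its other codons ran from 300 to 378.

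**Figure D1:**
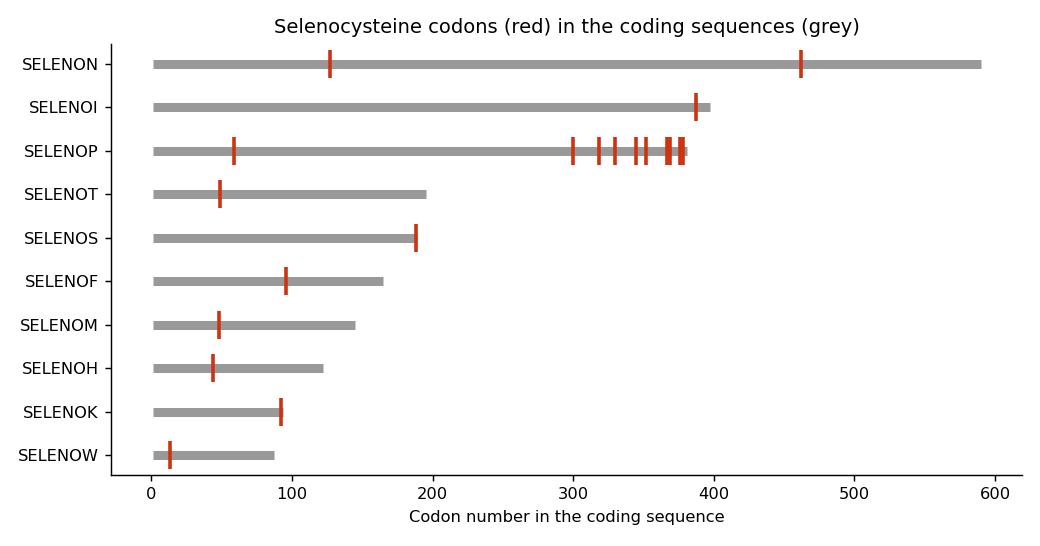
Position of each selenocysteine codon (red mark) along the coding sequence (grey bar) of the 10 genes, with the codon number on the x axis, in 1 GENCODE 29 transcript per gene. SELENOK and SELENOS carry the codon next to the end, and SELENOP carries 10 codons, all but the first of them from codon 300 on.

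Libraries held 17.9 to 23.8 M estimated counts (M for 1000000 counts), and counts per 1000000 (CPM) below are scaled between libraries with TMM. The targeted gene, NEMP1, had 14.1 and 17.3 CPM in the control libraries at 10 kPa and 8.22 and 7.63 CPM in the siNemp1 libraries. At 120 kPa it had 18.3, 14.0 and 14.1 CPM in control replicates 1 to 3 and 7.52, 6.70 and 4.11 CPM in siNemp1 replicates 1 to 3, so every siNemp1 library lay below every control library. Of the markers of retinal pigment epithelium, MITF, OTX2 and BEST1 were present and RPE65, RLBP1 and TTR were under 0.1 CPM in every library. The epithelial keratins KRT8 and KRT18 were abundant while CDH1 and EPCAM were near 0. Leukocyte markers summed to 1.73 to 3.86 CPM and endothelial markers to 0.489 to 1.27 CPM. The summed mesenchymal markers (6 of 6 in the table) ran from 12930 to 13330 CPM in control and 8792 to 9104 CPM in siNemp1 libraries at 10 kPa, and from 7956 to 12000 CPM and 3951 to 8242 CPM at 120 kPa. FN1 was the largest part of these sums, with means of 9220 and 5770 CPM in control and siNemp1 cells at 10 kPa. At 120 kPa its means were 7230 and 4050 CPM. VIM and THY1 also had lower means with siNemp1 at both stiffnesses. CDH2 had higher means at both, COL1A1 went up at 10 kPa and down at 120 kPa, and COL1A2 was near 0. The mitochondrial share of counts was 1.48% to 1.60% at 10 kPa. At 120 kPa it was 1.73%, 1.40% and 0.913% in control replicates 1 to 3 and 1.06%, 0.826% and 0.709% in siNemp1 replicates 1 to 3, with the libraries numbered 3 lowest in both groups. The part of these markers and shares in the results was not tested. In bulk libraries, a change in the kinds of cells and a change in the RNA of each cell cannot be told apart.

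Per length of the transcript carrying the selenocysteine codon, the 10 genes covered a wide range of levels. Each value rests on the length of 1 annotated transcript, 8101 bases in SELENOI and 3469 in SELENOT. The median transcript lengths of those genes were 624 and 944 bases. Which transcripts the counts came from was not tested, so the order of the genes below holds for these lengths alone. In control cells at 10 kPa the level per kilobase (CPM per kb) was highest for SELENOW, at 87.6 ± 4.45 (SD, n = 2). SELENOH followed at 61.6 ± 2.14 and SELENOF at 61.5 ± 0.666, which did not differ beyond their spread. Next came SELENOS (32.6 ± 2.63), SELENOM (29.6 ± 0.720), SELENON (25.5 ± 0.596), SELENOT (22.2 ± 1.10) and SELENOK (18.0 ± 1.47). The ranges of these 5 neighbours over the 2 libraries did not overlap. SELENOP, the secreted selenium carrier that is made mostly in the liver, stood far lower at 4.90 ± 0.0312, and SELENOI was lowest at 0.903 ± 0.136. In siNemp1 cells at 120 kPa SELENOT reached 56.4 ± 4.17 CPM per kb (n = 3) and SELENON was at 15.3 ± 1.8, so that SELENON came below SELENOK (34.7 ± 2.27), which it exceeded in control cells at 10 kPa.

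**Figure D2:**
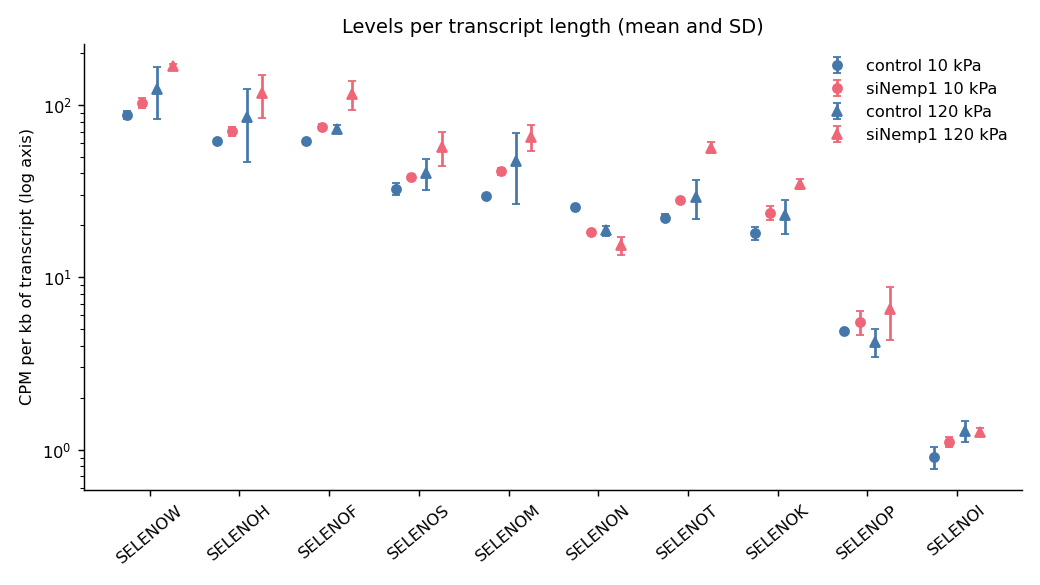
Level of each gene in CPM per kilobase of the transcript with the selenocysteine codon (y axis, log scale), with the genes on the x axis and points and bars for the mean and SD of the 2 or 3 libraries in each group. SELENOT goes from 22.2 in control cells at 10 kPa to 56.4 in siNemp1 cells at 120 kPa, and SELENON from 25.5 to 15.3.

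At 120 kPa, siNemp1 and control cells were first set side by side for the thioredoxin-like CxxU proteins. SELENOT (ENSG00000198843, chromosome 3, 150602875 to 150630445, GRCh38, plus strand) encodes a redox protein of the ER membrane. Its level was 92.7, 80.5 and 129 CPM in control replicates 1 to 3 and 203, 179 and 205 CPM in siNemp1 replicates 1 to 3. All siNemp1 libraries lay above all control libraries, with control replicate 3 the highest of the controls. The log2 fold change was 0.95 ± 0.16 (standard error of the fit), the largest of the 10 genes, and it was 1.13, 1.15 and 0.67 between same-numbered libraries. The 5′ end of the annotated SELENOT gene overlaps SERP1 on the other strand by 354 bases, and whether the libraries keep strand was not given in the sources used here. SERP1 had a log2 fold change of 0.36 ± 0.18 in the same comparison.

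SELENOM, a small redox protein of the ER lumen, had 29.0, 48.5 and 72.7 CPM in the controls and 56.3, 79.3 and 70.7 CPM with siNemp1. The groups overlapped, because control replicate 3 was above siNemp1 replicates 1 and 3. SELENOW, a small cytosolic protein with a thioredoxin fold, had 87.4, 91.2 and 152 CPM in controls and 150, 145 and 152 CPM with siNemp1. Here too control replicate 3 stood with the siNemp1 libraries, and the log2 ratio of that pair was 0.0 against 0.78 and 0.67 in the other pairs. SELENOH, a nuclear protein of the same fold, had 39.7, 69.9 and 104 CPM in controls and 69.5, 100 and 124 CPM with siNemp1. Replicate 1 was lowest and replicate 3 highest in both groups, so that the groups overlapped while each siNemp1 library exceeded the control library of the same number. The log2 fold changes were 0.46 ± 0.26 for SELENOM, 0.44 ± 0.19 for SELENOW and 0.46 ± 0.30 for SELENOH.

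Among the other ER proteins, SELENOF binds the glycoprotein folding sensor UGGT1. Its level was 135, 121 and 132 CPM in controls and 248, 202 and 170 CPM with siNemp1, with no overlap and a log2 fold change of 0.68 ± 0.13. SELENOK and SELENOS are ER membrane proteins that work with the p97 (VCP) and Derlin machinery for degrading misfolded proteins. SELENOK had 34.6, 31.0 and 47.2 CPM in controls and 56.4, 53.1 and 60.5 CPM with siNemp1, again with no overlap, and its log2 fold change was 0.59 ± 0.15. SELENOS had 46.6, 58.0 and 70.0 CPM in controls and 68.1, 74.5 and 102 CPM with siNemp1. Control replicate 3 was above siNemp1 replicate 1, and the log2 fold change was 0.49 ± 0.18.

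SELENOP had 11.0, 9.81 and 7.54 CPM in controls and 18.5, 16.7 and 9.08 CPM with siNemp1. The libraries numbered 3 were the lowest of both groups, and siNemp1 replicate 3 lay within the controls. Its log2 fold change was 0.64 ± 0.25. SELENOP overlaps CCDC152 on the other strand by 2481 bases, and CCDC152 stood at 15.9 to 19.9 CPM in all 10 libraries, with a log2 fold change of −0.03 ± 0.13. Hepatocyte markers, the cells that make most SELENOP in the body, gave 5.81 to 6.74 CPM in controls and 4.37 to 5.75 CPM with siNemp1 at 120 kPa, nearly all of it SERPINA1, and the hepatocyte genes ALB and APOA1 were near 0.

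SELENOI and SELENON did not follow the other 8 genes. SELENOI transfers phosphoethanolamine to make the membrane lipid phosphatidylethanolamine. It had 8.87, 10.7 and 11.7 CPM in controls and 10.9, 10.1 and 9.82 CPM with siNemp1, and the groups overlapped around a log2 fold change of −0.02 ± 0.16. SELENON (ENSG00000162430, chromosome 1, 25800176 to 25818224, plus strand) encodes an ER protein tied to calcium uptake, and its inherited loss causes muscle disease. Its level was 77.1, 87.1 and 78.8 CPM in controls and 65.2, 74.5 and 59.0 CPM with siNemp1. Every siNemp1 library was below every control library, and the log2 fold change was −0.29 ± 0.11. After trends with length and GC content were taken out it was −0.11 ± 0.13, and SELENON is the gene of the 10 with the longest median transcript (4212 bases, 59.8% GC).

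**Figure D3:**
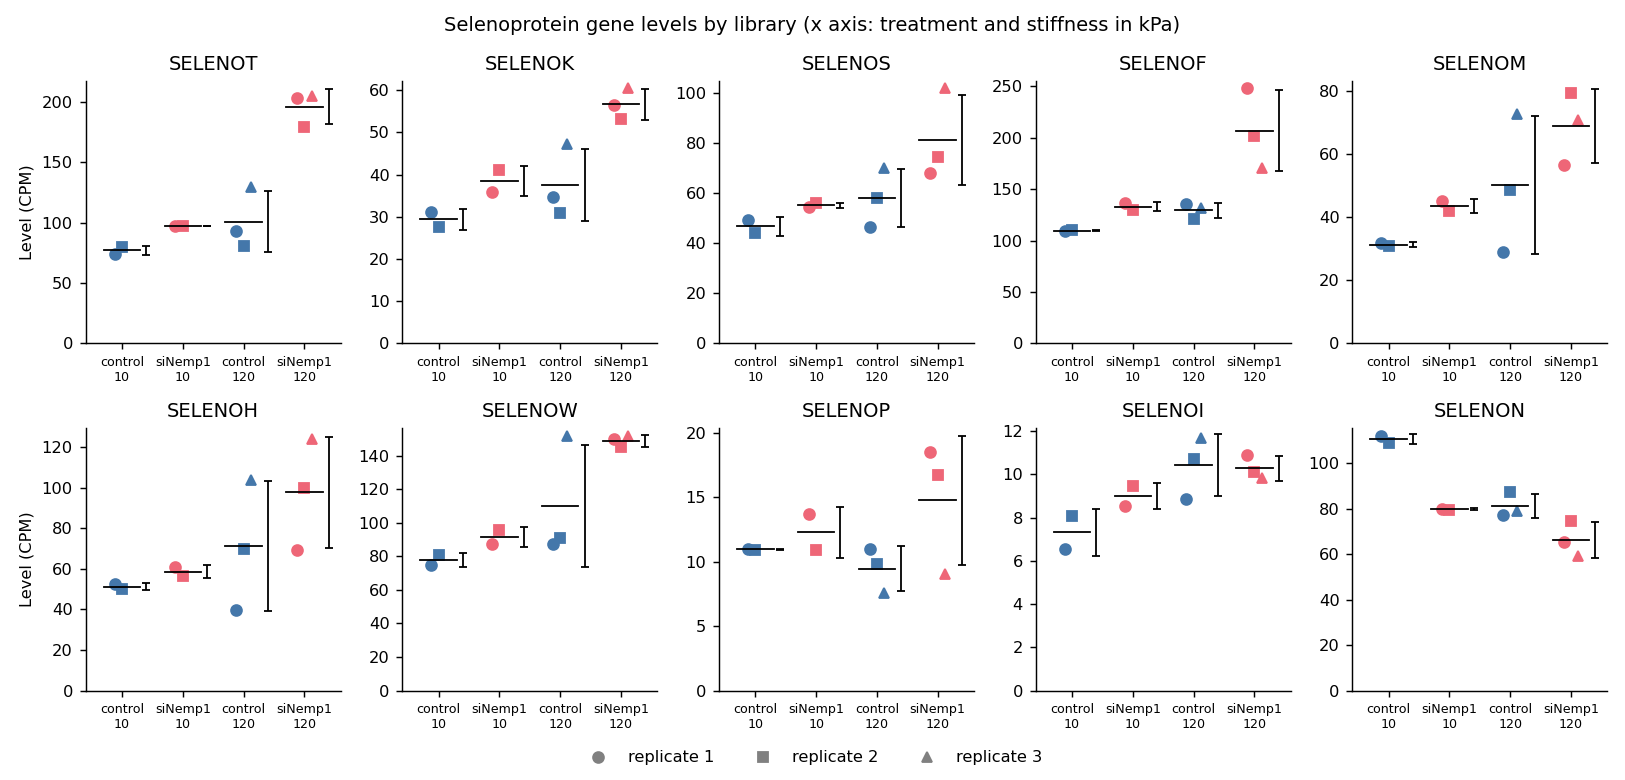
Level of each of the 10 genes in CPM (y axis, from 0) in every library, by treatment and stiffness in kPa (x axis). Blue is control, red is siNemp1, marker shapes give the replicate number, lines the group mean and bars the SD. The siNemp1 libraries at 120 kPa lie at 179 to 205 CPM for SELENOT, above all other libraries, and control replicate 3 at 120 kPa is near the siNemp1 libraries for SELENOM, SELENOW and SELENOH.

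In all, 3 of the 10 genes (SELENOT, SELENOK and SELENOF) were higher and 1 (SELENON) was lower in siNemp1 than in control libraries at 120 kPa without overlap, where 17.9% of all tested genes did not overlap in either direction (10.9% higher, 6.95% lower). The median log2 fold change of the 10 genes was 0.47, beside 0.01 for all tested genes. By edgeR's quasi-likelihood test, 0 of the 10 and 0 of 13990 genes (0%) passed an adjusted p of 0.05, while 2413 genes had an unadjusted p under 0.05 and DESeq2 called 642 of 9394 genes (6.83%), with SELENOT, SELENOK and SELENOF among them. Same-numbered libraries at 120 kPa deviated together, and in a fit blocked on that number 5 of the 10 genes (SELENOT, SELENOF, SELENOK, SELENOS and SELENOP) were among 1224 called genes (8.75%, with 6.24% higher and 2.51% lower), and the log2 fold change of SELENOT was 0.98 ± 0.12. Because the genes were chosen on this comparison, nothing is read from these counts. Without pair 2 in that fit 0 of the 10 genes and 2 of all genes were called, and without control replicate 3 in the fit with no block 4 of the 10 and 582 of all genes were.

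The knockdown at 10 kPa rests on 4 libraries that are not in the comparison at 120 kPa. Its results were also known when the genes were proposed, so its p-values are not independent of that choice. SELENOT had 74.2 and 79.6 CPM in control replicates 1 and 2 and 97.1 and 96.9 CPM with siNemp1. SELENOK had 31.1 and 27.7 CPM in controls and 36.0 and 41.0 CPM with siNemp1, and SELENOF had 109 and 110 CPM beside 136 and 130 CPM. For these 3 genes both siNemp1 libraries were above both controls, as at 120 kPa. SELENOM had 31.8 and 30.7 CPM in controls and 45.0 and 41.8 CPM with siNemp1, the widest gap among the CxxU genes on a log scale. SELENOW (75.0 and 80.6 CPM beside 87.4 and 95.8 CPM), SELENOH (52.6 and 50.0 beside 61.1 and 56.3 CPM) and SELENOS (49.5 and 44.2 beside 54.6 and 56.0 CPM) showed narrower gaps without overlap. SELENOI, at 6.54 and 8.09 CPM in controls and 8.56 and 9.44 CPM with siNemp1, did not overlap either. SELENOP was the exception, with 11.0 and 10.9 CPM in controls and 13.7 and 10.9 CPM with siNemp1. SELENON had 112 and 109 CPM in controls and 80 and 79.5 CPM with siNemp1, so it was lower in both siNemp1 libraries.

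At this stiffness 8 of the 10 genes were higher and 1 was lower without overlap, but with 2 libraries a group 57.3% of all tested genes did not overlap (28.8% higher, 28.5% lower). The median log2 fold change of the 10 genes was 0.26, beside 0.0 for all tested genes. The log2 fold changes were 0.47 ± 0.33 for SELENOM, 0.39 ± 0.19 for SELENOK, 0.33 ± 0.19 for SELENOT, 0.30 ± 0.20 for SELENOI and 0.28 ± 0.16 for SELENOF. They were 0.24 ± 0.22 for SELENOS, 0.24 ± 0.23 for SELENOW, 0.20 ± 0.37 for SELENOH, 0.16 ± 0.31 for SELENOP and −0.47 ± 0.14 for SELENON. None of the 10 passed edgeR's quasi-likelihood test, with adjusted p from 0.803 (SELENON) to 0.957, and 0 of 13990 genes (0%) did. At an unadjusted p under 0.05 there were 850 genes, 6.08% of those tested, with SELENON the only one of the 10, and DESeq2 called 17 of 15319 genes (0.111%), none of the 10.

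That fit shares 1 estimate of the spread with the 120 kPa libraries, whose replicates differ more. Fitted on the 4 libraries at 10 kPa alone, edgeR's common dispersion was 0.00423, against 0.0387 in the fit of all 10 libraries and 0.0525 for the 120 kPa libraries alone. In the 4-library fit 2308 of 13345 genes (17.3%) were called, 8.10% higher and 9.19% lower, and 7 of the 10 selenoprotein genes were among them. SELENOM rose by a log2 fold change of 0.46 ± 0.08 (edgeR adjusted p = 0.00048), SELENOK by 0.37 ± 0.09 (0.00696) and SELENOT by 0.32 ± 0.06 (0.0011). SELENOF (0.27 ± 0.06, adjusted p = 0.00286), SELENOS (0.22 ± 0.08, 0.0459) and SELENOW (0.22 ± 0.07, 0.0235) rose by less. SELENON fell by 0.48 on the log2 scale (standard error 0.06, adjusted p = 1.39e-05), in 2 of 2 libraries. In the fit of all 10 libraries, removing length and GC trends took the value of SELENON at 10 kPa from −0.47 ± 0.14 to −0.23 ± 0.16 (edgeR adjusted p = 0.826) and that of SELENOP from 0.16 ± 0.31 to 0.07 ± 0.28. SELENOH, SELENOI and SELENOP were not called, at an adjusted p of 0.0912, 0.263 and 0.526. Of the fits run, these 7 were called at 10 kPa in this one alone. The 10 kPa results were known when the genes were proposed, so these p-values are not independent of that choice. The small spread between 2 libraries a group could be technical.

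**Figure D4:**
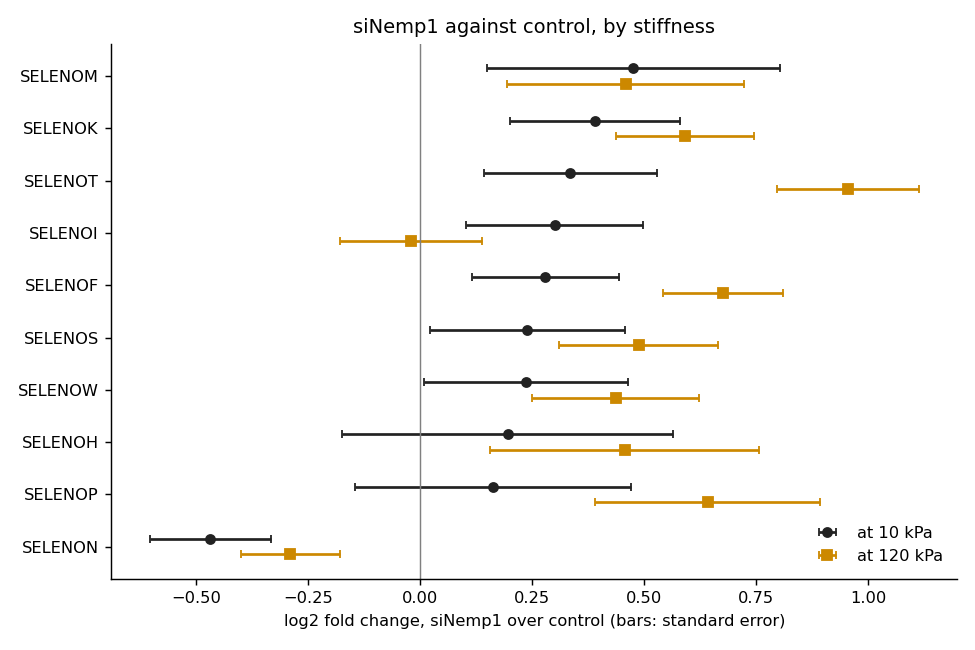
Log2 fold change of siNemp1 over control (x axis) for each gene (y axis) at 10 kPa (black circles) and 120 kPa (orange squares), with bars for the standard error of the fit of all 10 libraries. SELENOT has 0.33 at 10 kPa and 0.95 at 120 kPa, SELENOM has nearly the same value at both, and SELENON is below 0 at both.

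Whether the effect of siNemp1 differed between the stiffnesses was tested as the difference of the log2 fold changes. For SELENOT that difference was 0.62 ± 0.25, with an unadjusted p of 0.0314 and an edgeR adjusted p of 1.0, and with the block it was 0.65 ± 0.18 (adjusted p = 1.0). For the other 9 genes the difference ran from −0.32 ± 0.25 (SELENOI) to 0.48 ± 0.40 (SELENOP), each with an adjusted p of 1.0. Only 1 of all tested genes (0.00715%) passed, and 235 had an unadjusted p under 0.05. A difference between the stiffnesses was therefore not established for any of the 10 genes, and since the 120 kPa values entered their choice, the value for SELENOT is a description.

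The other direction of the design compares 120 with 10 kPa within a treatment. These comparisons use the same libraries as those above. In control cells, SELENOT, SELENOF, SELENOW and SELENOI were higher on the stiff substrate in all libraries and SELENON was lower in all, 5 of the 10 genes beside 22.2% of all tested genes (10.3% higher, 11.9% lower). SELENON was at 112 and 109 CPM on the soft and 77.1, 87.1 and 78.8 CPM on the stiff substrate, a log2 fold change of −0.45 ± 0.12. SELENOI had a log2 fold change of 0.51 ± 0.18, SELENOW of 0.50 ± 0.21 and SELENOM, whose groups overlapped, of 0.68 ± 0.30. Replicate 3 exists at 120 kPa alone, and the block treats same-numbered libraries at 10 and 120 kPa as linked, which was not checked. With the block the values were 0.33 ± 0.16 for SELENOW and 0.43 ± 0.27 for SELENOM, while SELENOH went from 0.48 ± 0.34 to 0.12 ± 0.22 and SELENOS from 0.31 ± 0.20 to 0.14 ± 0.12. None of the 10 passed edgeR's test, at adjusted p of 0.991 to 0.993, where 2 of all tested genes (0.0143%) did. SELENOI, SELENOM, SELENON and SELENOW had an unadjusted p under 0.05, as did 4.07% of all genes.

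In siNemp1 cells, 8 of the 10 genes were higher at 120 than at 10 kPa in all libraries and SELENON was lower in all, where 33.7% of all tested genes did not overlap (18.2% higher, 15.5% lower). SELENOP overlapped. SELENOT went from 97.1 and 96.9 CPM to 203, 179 and 205 CPM, a log2 fold change of 1.01 ± 0.18. It was 0.74 ± 0.34 for SELENOH, 0.70 ± 0.21 for SELENOW, 0.66 ± 0.30 for SELENOM and 0.64 ± 0.15 for SELENOF. SELENOK and SELENOS both had 0.56, with standard errors of 0.18 and 0.20, and SELENOP (0.26 ± 0.28), SELENOI (0.19 ± 0.18) and SELENON (−0.27 ± 0.12) had smaller values. The median of the 10 was 0.60, beside 0.02 for all tested genes. The lowest edgeR adjusted p was 0.315, and 0 of 13990 genes (0%) passed, while 1655 genes (11.8%) had an unadjusted p under 0.05. DESeq2 called 111 of the 4830 genes to which it gave an adjusted p (2.30%), SELENOF and SELENOT among them. It gave none to SELENOI and SELENOP. Summed over the 10 genes, the level was 552.6 and 550.7 CPM in control and 619.5 and 617.3 CPM in siNemp1 libraries at 10 kPa, and 561.5, 608.1 and 805.8 CPM and 945.9, 934.0 and 962.1 CPM at 120 kPa. The siNemp1 libraries at 120 kPa had the highest 3 sums and control replicate 3 at 120 kPa came next. These siNemp1 libraries entered the choice of the genes, so neither that order nor the values above are independent of it.

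**Figure D5:**
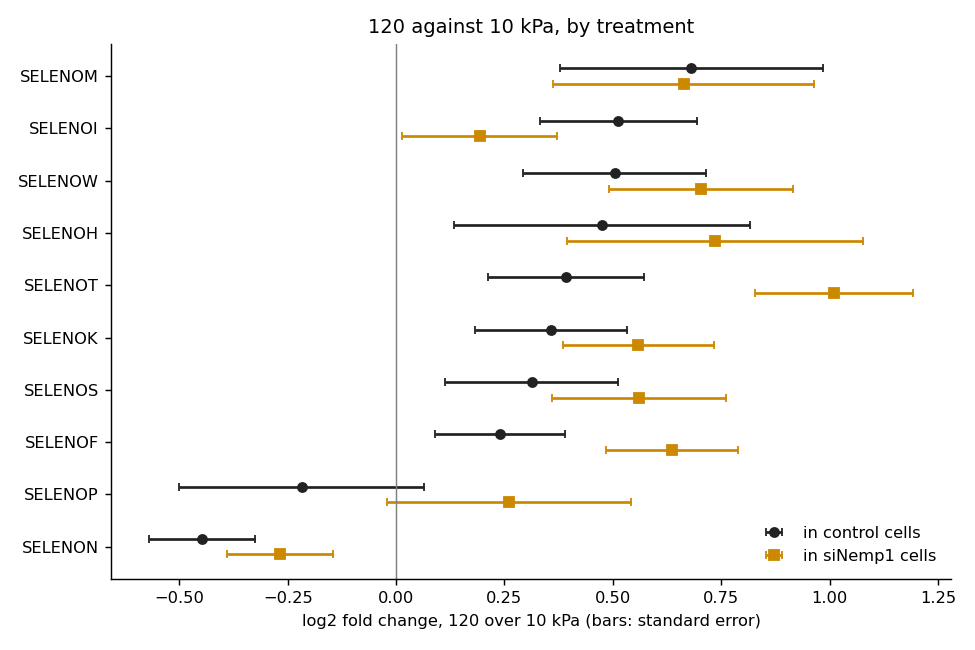
Log2 fold change of 120 over 10 kPa (x axis) for each gene (y axis) in control cells (black circles) and siNemp1 cells (orange squares), with bars for the standard error of the fit of all 10 libraries. SELENOT has 0.39 in control and 1.01 in siNemp1 cells, and SELENON lies below 0 in both.

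Promoter sequences are shown for SELENOT and SELENON, which had the highest and the lowest log2 fold change of the 10 for siNemp1 at 120 kPa. RefSeq's table for GRCh38.p14 held windows of 300 bases, from 250 before to 50 after the start, for 9 of the 10 genes (10 windows, SELENOF having 2). The whole SELENOT window lies inside the GENCODE span given above, which begins at 150602875, so RefSeq and GENCODE place the start of this gene differently. Capitals mark the GC box GGGCGG, the CCAAT box and the antioxidant response core TGACNNNGC, on either strand and with overlaps kept.
SELENOT, chr3:150603071-150603370, plus strand: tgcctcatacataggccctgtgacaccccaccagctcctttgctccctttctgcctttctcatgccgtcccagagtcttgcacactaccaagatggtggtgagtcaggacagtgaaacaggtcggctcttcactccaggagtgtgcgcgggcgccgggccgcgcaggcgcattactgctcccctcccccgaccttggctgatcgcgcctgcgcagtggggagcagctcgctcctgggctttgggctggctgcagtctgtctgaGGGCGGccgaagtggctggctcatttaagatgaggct
SELENON, chr1:25799943-25800242, plus strand: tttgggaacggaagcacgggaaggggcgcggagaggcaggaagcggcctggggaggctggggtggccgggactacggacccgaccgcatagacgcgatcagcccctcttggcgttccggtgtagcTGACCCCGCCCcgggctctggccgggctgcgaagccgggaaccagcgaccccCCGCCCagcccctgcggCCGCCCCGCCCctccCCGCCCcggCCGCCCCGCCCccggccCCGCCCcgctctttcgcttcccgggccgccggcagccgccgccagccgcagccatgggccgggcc

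The SELENOT window held 1 GC box and neither of the other motifs, and the SELENON window held 8 GC boxes and 1 antioxidant response core. Over the 10 windows of these genes, 9 held a GC box, as did 45.0% of 35116 windows in the table. Apart from that of SELENOP (42.0% GC), these windows had 62.0% to 78.7% GC, beside a median of 58.7% over all windows. The part of GC content in these shares was not tested. The CCAAT box was in windows of SELENOF, SELENOI, SELENOK, SELENOS and SELENOW, and in 34.6% of all windows. The antioxidant response core was in those of SELENON, SELENOK and SELENOP and in 13.3% of all windows. A match describes the letters of a window and says nothing of a factor.

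Across the 10 libraries, the genes differed in how closely they followed SELENOT. Pearson's r of log2 CPM with SELENOT was 0.967 for SELENOK, 0.934 for SELENOW, 0.907 for SELENOF, 0.865 for SELENOS, 0.803 for SELENOM and 0.741 for SELENOH. It was 0.595 for SELENOI, 0.339 for SELENOP and −0.853 for SELENON. Outside the 10 genes, patterns were compared among tested genes with a short symbol of capital letters and digits alone and a mean of at least 5 CPM. The closest of these were CHMP5 (0.994), GPN1 (0.992), CIAO2A (0.990), THOC7 (0.990) and COPS3 (0.989), over 10 libraries that share the 4 groups. The values are a description of these libraries, and depth, scaling and group means are common to all of them.

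Other selenoproteins and the machinery for selenocysteine were counted in lists drawn up with earlier results of these data known. Adjusted p-values of genes in these lists are not independent of that choice. Of 15 other selenoprotein genes 9 were tested, and of 14 genes for making and inserting selenocysteine 12 were. Without the block, in the model of all 10 libraries, none of them was called in any of the 5 comparisons. The median log2 fold change at 120 kPa for siNemp1 was 0.16 for the other selenoproteins (6 of 9 above 0) and 0.21 for the machinery (8 of 12 above 0). With the block, GPX1, a cytosolic peroxidase, rose by 0.68 ± 0.16 (edgeR adjusted p = 0.0321), from 97.5, 156 and 273 CPM to 187, 260 and 354 CPM. Its groups overlapped, and each siNemp1 library exceeded the same-numbered control. Of the machinery, SARS1 (0.44 ± 0.09), which charges the transfer RNA with serine, TRNAU1AP (0.48 ± 0.13), which associates with that transfer RNA, and RPL30 (0.36 ± 0.10), a ribosomal protein that binds the hairpin, rose in the blocked fit, 3 of 12 beside 6.24% of all genes called higher. The groups overlapped for SARS1 and TRNAU1AP and did not for RPL30.

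The peroxidase GPX4 had a log2 fold change of 0.26 ± 0.16 at 120 kPa and 0.13 ± 0.20 at 10 kPa. TXNRD1, a thioredoxin reductase, had −0.16 ± 0.12 and 0.10 ± 0.15, and SEPHS2, which makes selenophosphate, had 0.24 ± 0.29 and −0.06 ± 0.36. SECISBP2 had −0.04 ± 0.15 at 120 kPa and −0.17 ± 0.18 at 10 kPa. None of these passed with or without the block. The selenium uptake receptor LRP8 fell by 0.73 on the log2 scale (standard error 0.19, edgeR adjusted p = 0.0375) with the block at 120 kPa. LRP8 had 10.6, 8.48 and 9.52 CPM in controls and 7.03, 6.55 and 4.07 CPM with siNemp1, without overlap. In the fit of the 4 libraries at 10 kPa LRP8 fell by 0.61 (standard error 0.15, adjusted p = 0.00674) and LRP1 fell by 0.71 (standard error 0.07, adjusted p = 5.2e-06). The same fit called GPX1 (0.27 ± 0.06) and DIO2 (0.28 ± 0.07) higher, 2 of 9 other selenoproteins. Of the 12 machinery genes it called TRIT1 (0.42 ± 0.11), SARS1 (0.20 ± 0.06) and RPL30 (0.19 ± 0.06) higher and NCL (−0.37 ± 0.05) lower, where 17.3% of all genes were called.

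The partners of the ER members were also counted, in lists likewise drawn up with earlier results of these data known. Their adjusted p-values are not independent of that choice. For siNemp1 at 120 kPa the blocked fit called 1224 of all genes, and 2 when pair 2 was left out. At 120 kPa with the block, UFD1, a cofactor of p97 in ER-associated degradation, rose by a log2 fold change of 0.37 ± 0.10 (edgeR adjusted p = 0.0468), though its groups overlapped. No gene of that list was called lower, while 4 of its 15 genes had a log2 fold change below 0. Of the 7 genes of glycoprotein folding control, UGGT1, the partner of SELENOF, fell by 0.39 (standard error 0.10, edgeR adjusted p = 0.0424) with overlapping groups, and no other was called. Of 10 tested genes of ER calcium and redox, ATP2A2, the calcium pump, fell by 0.44 (standard error 0.09, adjusted p = 0.0146), while the oxidases ERO1A (0.40 ± 0.10) and ERO1B (1.22 ± 0.26) rose. Of all genes 6.24% were called higher and 2.51% lower in that fit. None of 10 tested genes of ethanolamine and choline phospholipid synthesis, the pathway of SELENOI, was called. In the 4-library fit at 10 kPa, ATP2A2 fell by 0.43 (standard error 0.07) and UGGT1 by 0.24 (standard error 0.06), and ERO1A rose by 0.22 ± 0.05. PRDX4, an ER peroxidase (0.49 ± 0.05), and the folding chaperone CALR (0.24 ± 0.06) also rose, and the calcium channel ITPR3 fell by 0.48 (standard error 0.06). The calls were thus 2 higher and 2 lower of 10 calcium and redox genes and 1 higher and 1 lower of 7 folding genes, where 8.10% of all genes were called higher and 9.19% lower. Of 15 degradation genes 4 were called higher (UBXN4, SEL1L, HERPUD1 and FAF2) and none lower, and of 10 phospholipid genes ETNK1 (0.26 ± 0.07) was called higher. Without the block and with all 10 libraries, 0 of the genes of these 4 lists passed in any comparison.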

How the data were processed

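RNA from 10 libraries had been depleted of ribosomal RNA with RNase H and primed with random hexamers, per the labels' protocols. Tools named in the submitters' processing notes are Salmon 1.80 (as written there), Trimmomatic 0.33, FastQC 0.11.9 and edgeR, with the GRCh38 build. Whether reads keep strand was not given in the sources used here. Values are estimated counts (expected counts) per gene as deposited by the authors, with no scaling between libraries stated, and 20% of them are not whole, so all were rounded. Rows were filtered with filterByExpr, scaled with TMM and fitted in edgeR 4.0.16 (R 4.3.3, quasi-likelihood, robust) with 1 mean per group, 6 residual degrees of freedom and two-sided p-values adjusted by Benjamini-Hochberg over 13990 genes. An adjusted p under 0.05 was called. The standard error given with an edgeR log2 fold change is its absolute value divided by the square root of its F statistic.

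The members and lists were chosen with earlier results of these data known. All 10 members are named, with up to 4 called genes of each list and 5 genes always given. The 5 genes closest to SELENOT under the rule given above are also named. A called gene of these lists is not reported here. Same-numbered control and siNemp1 libraries deviated together at 120 kPa (r = 0.426, 0.157 and 0.359 for replicates 1, 2 and 3, from the titles' numbers, whose meaning is not given) and not at 10 kPa (r = 0.0171). The replicate number was therefore also fitted as a block (4 residual degrees of freedom). Alternatives were DESeq2 1.42.0, other scalings and filters, length and GC offsets (mgcv 1.9.3), fits of the groups compared alone and each library left out. The block at 120 kPa alone, without each pair or with upper-quartile scaling was added after the data were seen. Fits were tested on simulated data. Lengths and codons came from GENCODE 29, from the principal transcript with the most selenocysteine codons, then the longest. Protein sequences were not used here.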

Additional observations from a re-analysis of the deposited data

How the results depend on the processing

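Of 990 values of the 10 genes under 24 alternatives, 915 kept their direction and their side of the threshold, 64 kept the direction and passed it, and 11 changed sign. For siNemp1 at 120 kPa, genes called numbered 0 in the fit of all 10 libraries, 642 by DESeq2, 643 without a filter, 119 with at least 5 CPM in 2 libraries, 80 with length and GC trends removed, 1224 with the replicate block and 1771 with both. In blocked fits added later they numbered 1255 with the 120 kPa libraries alone, 1552, 2 and 755 without pair 1, 2 and 3, and 1215 with upper-quartile scaling. The 10 selenoprotein genes called were 0, 3, 3, 2, 1, 5 and 7 in the first order, and 6, 6, 0, 5 and 6 in the second. With single libraries left out, 0 to 582 genes and 0 to 4 of the 10 were called, the highest without control replicate 3. Upper-quartile scaling in the blocked fit split its calls 645 higher and 570 lower, against 873 and 351 with TMM.

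For siNemp1 at 10 kPa the counts were 0 of all genes, 17 by DESeq2, 66 without a filter, 4 with the replicate block, 5 with block and trends, 2308 from the 4 libraries alone (7 of the 10 genes) and 0 to 2 with a library left out. Across 120 and 10 kPa in control cells they were 2, 12 by DESeq2, 159 without a filter (1 of the 10, SELENOM), 0 at 5 CPM, 4 with block and trends and 0 to 3 with a library left out. In siNemp1 cells they were 0, 111 by DESeq2 (2 of the 10), 529 without a filter (5 of the 10), 2 with the replicate block, 1 with the groups compared alone, 5 with block and trends (1 of the 10, SELENOT) and 0 to 2 with a library left out. For the difference of the knockdown effects they were 1, 3 by DESeq2, 70 without a filter, 0 at 5 CPM, 4 with the block, 4 with block and trends, and 0 to 3 with a library left out. The cause of these shifts was not tested.

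Signs that changed were those of SELENOI at 120 kPa (−0.13 to 0.06 with a library left out, positive without control replicate 3, and 0.01 and 0.07 in the block without pair 2 and 3), SELENOP at 10 kPa (−0.0014 to 0.3 with a library left out, negative without siNemp1 replicate 1) and across stiffness in controls (0.0032 with the block), and the differences of SELENOM (0.05 with the block, −0.3 to 0.35 with a library left out, and 0.0034, 0.02 and 0.10 between) and SELENOH (−0.03 to 0.64 with a library left out, negative without control replicate 1 at 120 kPa). Added to the main fit, the block changed no call of the 10 genes outside the siNemp1 comparison at 120 kPa. Added to the fit with length and GC trends removed, it also brought a call of SELENOT across stiffness in siNemp1 cells (edgeR adjusted p = 0.0373, against 0.29). For siNemp1 at 120 kPa SELENOT ran from 0.80 to 1.16 over all settings, SELENOF from 0.51 to 0.77, SELENOK from 0.46 to 0.77, SELENOP from 0.43 to 0.86, SELENOW from 0.29 to 0.73, SELENOS from 0.26 to 0.63, SELENOM from 0.17 to 0.82, SELENOH from 0.16 to 0.82 and SELENON from −0.38 to −0.11. SELENOM in control cells across stiffness ran from 0.30 to 0.96. With 2 or 3 libraries a group, the spread between replicates limits the precision. The lowest count of SELENOT was 1462, and those of SELENOP and SELENOI were smaller, at 178 and 142.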
